A study of Mus musculus with 8 samples.

Results

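Plat, Thbd, Pth1r, Snai1, Stra6, Fst, Tfpi and Srgn are known in the mouse as markers of parietal endoderm. They were taken as a list of 8 named symbols out of 21812 symbols in the deposited table, with no cut on their values. The list was chosen with earlier results of these data known. All 8 were found once and had reads in every library, and all 8 passed the filter on low values that left 12854 genes for testing.

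Total RNA was sequenced from mouse embryonic stem cells (mESC) cultured in a medium that induces primitive endoderm, in 8 libraries of 4 groups of 2: Mettl3 cKO, Mettl3 WT, Virma cKO and Virma WT. Mettl3 is the catalytic subunit of the enzyme complex that writes N6-methyladenosine (m6A) onto RNA, and Virma is a scaffold subunit of it. The abbreviation cKO usually stands for a conditional knockout, and the controls carry the genotype WT. How the alleles were deleted, for how long, and whether the 2 sets of cells are separate lines or clones is not stated in the sources at hand. The series asks how m6A acts on the second cell fate decision of the embryo.

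Parietal endoderm is one of the 2 extraembryonic tissues that arise from the primitive endoderm of the blastocyst, the other being visceral endoderm. Its cells migrate along the inside of the trophoblast and lay down Reichert's membrane, a thick basement membrane of laminin, type IV collagen and Sparc. They also secrete regulators of clotting and fibrinolysis, because the membrane lies next to maternal blood. In mouse embryos and embryonal carcinoma cells, parathyroid hormone-related peptide acts through Pth1r and cyclic AMP to turn primitive endoderm into parietal endoderm, and this step goes with Snai1 expression and an epithelial-mesenchymal transition.

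None of the 8 genes belongs to parietal endoderm alone: Thbd, Plat and Tfpi are also made by endothelium, Srgn by blood cells, Snai1 by mesenchyme and Fst by many tissues. The cells held abundant RNA of the defining basement membrane genes. In Mettl3 WT libraries Lama1, a laminin chain, had scaled read counts of 60606 and 61032. Visceral endoderm genes were also present. The 13 listed summed to 1394 and 1450 scaled reads in Mettl3 cKO, against 1394 and 1503 in Mettl3 WT, and to 551 and 527 in Virma cKO, against 1361 and 1530 in Virma WT. A large part of the WT sums was Amn alone, with 624 and 579 in Mettl3 WT and 614 and 713 in Virma WT. Amn fell in Virma cKO (log2 fold change −3.23 ± 0.127), so the size of the fall in these sums depends much on this gene. The fall was not of Amn alone. Of the 13 listed genes 8 were tested, and in Virma cKO 6 of them fell and none rose. Their median there was −1.41 on the log2 scale. Trf, which encodes transferrin, had between 281 and 544 scaled reads in each library, Afp at most 6 and Ttr at most 21.

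The table holds reads that had been scaled to a common upper quartile and rounded, so each value is called a scaled read count here. The approximate depth behind them was 17.62 and 15.995 M reads in Mettl3 cKO, against 6.7 and 6.2 M in Mettl3 WT. It was 22.98 and 22.285 M in Virma cKO, against 25.61 and 25.01 M in Virma WT. In Mettl3 WT libraries 1 read is therefore worth 2.55 and 2.76 scaled reads, and the counting error of low genes is greatest there. Depth follows the group in the Mettl3 comparison, and its part in the results was not tested. The targeted genes did not check the Mettl3 label. Mettl3 itself had 588 and 560 scaled reads in the libraries labelled Mettl3 cKO, against 596 and 588 in Mettl3 WT (log2 fold change −0.04 ± 0.0850 SE, adjusted p = 0.683). Virma had 1173 and 1214 in Virma cKO, against 1564 and 1488 in Virma WT (log2 fold change −0.35 ± 0.0396, adjusted p = 4.82e-13). Mettl3 fell there too, with 565 and 552 in Virma cKO, against 768 and 742 in Virma WT (−0.43 ± 0.0523). Of all tested genes 38.3% were lower in that comparison, so the fall of Virma alone does not check the Virma label. The deleted exons are not stated in the sources at hand, and Mettl3 cKO stands below for the libraries so labelled.

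Promoter windows are shown for the genes with the deepest falls in Virma cKO, Srgn, Tfpi and Pth1r, and for Stra6, which kept its level. Each window is the 250 bases before the most upstream listed start of the gene in RefSeq on GRCm38.p6, another build than the mm39 of the deposited table, read 5′ to 3′ on the strand of the gene. Capitals mark, on either strand, the letters NGATAN with A or T first and A or G last (read by GATA factors), and ACAATN with A or G last (read by SOX factors). Gata4, Gata6, Sox7 and Sox17 are the GATA and SOX factors of primitive endoderm.
Srgn, chr10:62527446-62527695, minus strand: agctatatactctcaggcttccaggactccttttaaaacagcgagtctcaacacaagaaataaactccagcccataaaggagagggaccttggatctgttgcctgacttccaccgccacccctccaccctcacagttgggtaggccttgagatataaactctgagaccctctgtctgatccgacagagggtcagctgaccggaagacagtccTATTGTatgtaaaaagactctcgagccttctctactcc
Tfpi, chr2:84476760-84477009, minus strand: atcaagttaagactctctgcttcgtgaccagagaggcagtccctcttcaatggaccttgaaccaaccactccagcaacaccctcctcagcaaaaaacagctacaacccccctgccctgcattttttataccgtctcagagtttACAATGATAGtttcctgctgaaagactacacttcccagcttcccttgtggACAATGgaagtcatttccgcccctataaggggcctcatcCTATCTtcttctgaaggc
Pth1r, chr9:110747146-110747395, minus strand: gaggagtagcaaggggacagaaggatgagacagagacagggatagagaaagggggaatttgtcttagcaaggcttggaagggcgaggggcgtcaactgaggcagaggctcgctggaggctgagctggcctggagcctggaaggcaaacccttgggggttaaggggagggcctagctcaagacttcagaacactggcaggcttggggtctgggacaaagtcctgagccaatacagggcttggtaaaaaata
Stra6, chr9:58128838-58129087, plus strand: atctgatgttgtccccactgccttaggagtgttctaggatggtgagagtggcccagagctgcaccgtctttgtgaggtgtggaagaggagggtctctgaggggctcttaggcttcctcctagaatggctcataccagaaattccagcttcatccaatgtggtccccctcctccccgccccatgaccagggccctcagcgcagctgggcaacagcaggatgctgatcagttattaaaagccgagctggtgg

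In the Tfpi window both kinds of motif occur, and at 1 place they overlap, beginning 107 (SOX) and 103 (GATA) bases before the start. The second GATA match begins 18 bases before the start and the second SOX match 57 bases before it. The other listed Tfpi start also has both kinds of motif in its window. The Srgn window shown holds 1 SOX match 38 bases before the start and a TATAAA sequence 98 bases before it. The window of the other listed Srgn start holds no GATA or SOX match. In the Tfpi window shown the same TATAAA sequence lies on the other strand (TTTATA), 127 bases before the start. None of the listed Pth1r windows, and not the window of Snai1, holds a GATA or SOX match. One further Stra6 window, not the one shown, holds a GATA match. Of all 32851 RefSeq windows of this length 26.5% hold a GATA match and 17.4% a SOX match, so neither is rare. No window was listed in the table used for Plat, Thbd and Fst. These matches describe letters and were not measured as binding.

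In the libraries labelled Mettl3 cKO 6 of the 8 genes fell, 1 rose and 1 did not pass the test, by limma with weights for depth and Benjamini-Hochberg adjustment over all tested genes. In Virma cKO the count was the same, 6 lower, 1 higher and 1 not past the threshold of 0.05. The gene that did not pass was Pth1r in Mettl3 cKO and Stra6 in Virma cKO. Sizes ranged widely, and Srgn was 14.4-fold lower in Virma cKO than in Virma WT and 1.6-fold lower in Mettl3 cKO than in Mettl3 WT. Changes were frequent in the whole table, where 55.8% of tested genes passed in the Mettl3 comparison, made up of 29.7% lower and 26.2% higher. In the Virma comparison 74.5% passed, 38.3% lower and 36.2% higher. In each set 7 of the 8 genes had cKO libraries that did not overlap with the WT libraries, where 77.1% of all tested genes did so in the Mettl3 set and 85.8% in the Virma set. Over the 8 genes the median log2 fold change was −0.53 in Mettl3 cKO and −0.89 in Virma cKO, where that of all tested genes was −0.01 and −0.014. In bulk RNA, fewer cells that express a gene and less of its RNA per cell cannot be told apart. Nothing in the labels says that the 2 libraries of a group came from separate cultures, and the spread that enters the p-values may be technical only.

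**Figure D1:**
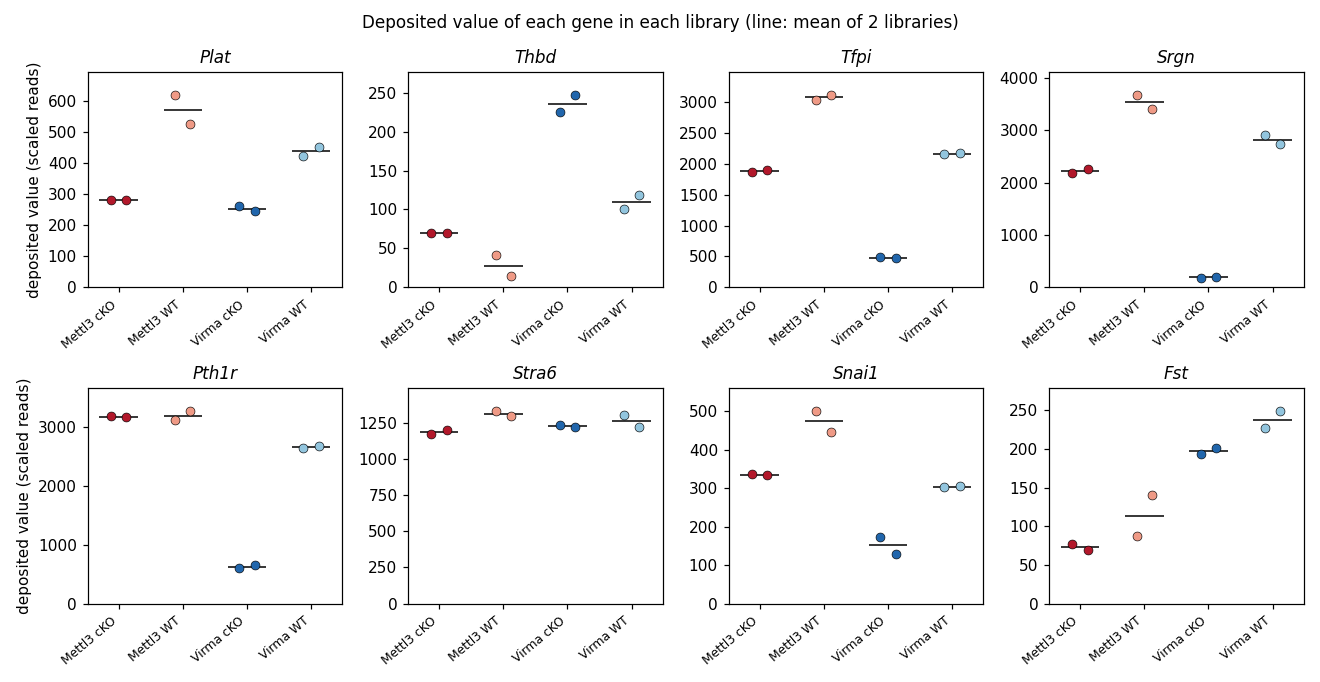
Scaled read counts (y axis, linear, from 0) of the 8 genes in each of the 8 libraries, by group on the x axis; points are libraries and lines are means of 2. Srgn, Tfpi and Pth1r are lowest in Virma cKO, Thbd is highest there, and Stra6 lies between 1172 and 1330 in all libraries.

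Plat encodes tissue plasminogen activator, the protease that makes plasmin. It had 280 and 282 scaled reads in Mettl3 cKO, against 619 and 524 in Mettl3 WT. In Virma cKO it had 261 and 246, against 424 and 453 in Virma WT. The cKO and WT libraries did not overlap in either set, and the 4 cKO libraries lay between 246 and 282. Plat was 2.02-fold lower in Mettl3 cKO (log2 fold change −1.02 ± 0.0988, adjusted p = 5.56e-15) and 1.72-fold lower in Virma cKO (−0.78 ± 0.0728, adjusted p = 2.07e-16). The difference between the 2 effects did not pass the test (0.23 ± 0.123, adjusted p = 0.104). It did so when libraries were scaled by their totals (0.34, adjusted p = 0.0149) and without Mettl3 WT replicate 2 (0.35, adjusted p = 0.0318).

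Tfpi encodes tissue factor pathway inhibitor, which blocks the start of clotting. It had 1873 and 1892 scaled reads in Mettl3 cKO, against 3031 and 3112 in Mettl3 WT. Virma cKO libraries had 483 and 482, against 2151 and 2170 in Virma WT. Replicates lay close together, and each cKO pair was below its WT pair. The fall was 1.63-fold in Mettl3 cKO (log2 fold change −0.70 ± 0.0434, adjusted p = 4.67e-25) and 4.46-fold in Virma cKO (−2.16 ± 0.0477, adjusted p = 6.54e-56). It was deeper in Virma cKO by 1.45 on the log2 scale (−1.45 ± 0.0645, adjusted p = 7.56e-34).

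Thbd encodes thrombomodulin, the receptor that turns thrombin from a clotting enzyme into an activator of protein C. It was the 1 gene of the 8 that rose, and it did so in both sets. Mettl3 cKO had 70 and 70 scaled reads, against 41 and 14 in Mettl3 WT. Those WT values rest on about 16 and 5 reads, and their 95% Poisson intervals, which cover counting error only, run from 23.3 to 66.2 and from 4.48 to 32.2 scaled reads. Virma cKO libraries had 225 and 247, against 101 and 119 in Virma WT, all from 149 reads or more. The rise was 2.63-fold in Mettl3 cKO (log2 fold change 1.40 ± 0.329, adjusted p = 0.000197) and 2.12-fold in Virma cKO (1.08 ± 0.107, adjusted p = 3.18e-15). In Mettl3 cKO it depended on 1 control library: without Mettl3 WT replicate 2 it was 0.73 and did not pass (adjusted p = 0.0746), and without Mettl3 WT replicate 1 it was 2.10 (adjusted p = 1.55e-05). The Virma rise passed in every alternative run for that comparison.

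**Figure D2:**
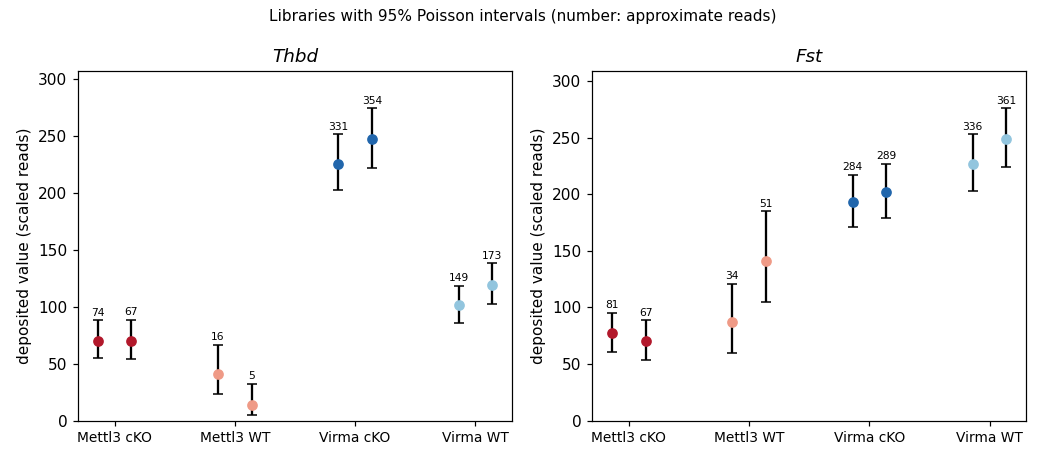
Scaled read counts of Thbd and Fst, the least abundant of the 8 genes in Mettl3 WT, in each library (y axis, linear, from 0), with 95% Poisson intervals for counting error and the approximate number of reads above each point. The Mettl3 WT points rest on 5 to 51 reads and have the widest intervals relative to their values.

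Of 18 other listed genes of clotting and fibrinolysis 12 were tested. In Mettl3 cKO 2 rose and 5 fell, with a median log2 fold change of −0.04. In Virma cKO 7 rose and 3 fell, with a median of 0.46. Pros1, the cofactor protein S of activated protein C, fell in both (−0.76 ± 0.0746 in Mettl3 cKO and −0.54 ± 0.05 in Virma cKO). Plaur, the receptor of urokinase, rose in both (0.79 ± 0.0968 in Mettl3 cKO and 0.94 ± 0.0547 in Virma cKO). Procr, the endothelial protein C receptor, rose in Virma cKO (0.98 ± 0.113) and did not pass in Mettl3 cKO (0.11 ± 0.171, adjusted p = 0.602). Plg, F7 and F10, which the liver makes, were among the 6 genes below the filter. F7 was at 0 in 6 of the 8 libraries, F10 in 5 and Plg in the 2 Mettl3 WT libraries.

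Since Thbd and Tfpi also mark endothelium, the endothelial list is given beside them. Its 10 genes summed to 2874 and 2884 scaled reads in Mettl3 cKO, against 2774 and 2722 in Mettl3 WT, and to 1315 and 1272 in Virma cKO, against 1981 and 1946 in Virma WT. In Mettl3 cKO 3 of 9 tested genes rose and 1 fell, and in Virma cKO 1 rose and 6 fell. Cdh5, the endothelial cadherin, rose in Mettl3 cKO (0.41 ± 0.177, adjusted p = 0.0431) and fell in Virma cKO (−1.73 ± 0.152). Tie1, a receptor of endothelial cells, rose in both (0.61 ± 0.222 in Mettl3 cKO and 0.72 ± 0.162 in Virma cKO). Kdr, a receptor of vascular endothelial growth factor, rose in Mettl3 cKO (0.91 ± 0.175) and fell in Virma cKO (−1.09 ± 0.144). Pecam1 fell in both (−0.15 ± 0.0619, adjusted p = 0.0367, in Mettl3 cKO and −0.46 ± 0.0505 in Virma cKO). The other 5 tested genes did not pass in Mettl3 cKO. Emcn had at most 5 scaled reads and was at 0 in Mettl3 WT replicate 2. The part of endothelial cells in the values of Thbd and Tfpi was not tested.

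Srgn encodes serglycin, the core protein of a proteoglycan of secretory granules, first known from a rat yolk sac tumour. It had 2180 and 2259 scaled reads in Mettl3 cKO, against 3678 and 3402 in Mettl3 WT. Virma cKO libraries had 185 and 201, against 2914 and 2738 in Virma WT. The Virma cKO libraries were thus far below the other 6. The log2 fold change was −0.67 ± 0.0431 in Mettl3 cKO (adjusted p = 7.98e-24) and −3.85 ± 0.0711 in Virma cKO (adjusted p = 1.39e-60). The difference of the effects, −3.18 ± 0.0832 (adjusted p = 6.43e-49), was the largest of the 8 genes in these libraries. Srgn made up 5.72% of the summed values of the 8 genes in Virma cKO, against 28.25% in Virma WT.

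Since Srgn is also made by blood cells, their list is given beside it. The 10 listed blood cell genes summed to 3360 and 3321 in Mettl3 cKO, against 3659 and 3490 in Mettl3 WT. They summed to 2611 and 2479 in Virma cKO, against 2709 and 2745 in Virma WT. Of 4 tested genes 1 rose and 1 fell in Mettl3 cKO, and 1 rose and 2 fell in Virma cKO. Laptm5, a lysosomal membrane protein, was the most abundant of them and rose in both (0.22 ± 0.0501 and 0.50 ± 0.0365). Runx1, a transcription factor of blood formation, fell in both (−0.74 ± 0.0733 and −2.26 ± 0.0809). It had 196 and 151 scaled reads in Virma cKO, against 835 and 835 in Virma WT. The other 6 genes were below the filter, among them Ptprc, the leukocyte marker CD45, with 0 or 1 scaled read in every library. The part of blood cells in the values of Srgn was not tested.

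Pth1r encodes the receptor of parathyroid hormone and its related peptide. It had 3182 and 3168 scaled reads in Mettl3 cKO, against 3120 and 3270 in Mettl3 WT, which lie on both sides of the cKO values. In Virma cKO it had 611 and 649, against 2653 and 2678 in Virma WT. In the Mettl3 comparison the log2 fold change was −0.01 ± 0.0406 (adjusted p = 0.893). With gene length and GC content taken out as a trend, it was −0.32 (adjusted p = 2.81e-12), so this value depends on that step. In Virma cKO Pth1r fell 4.22-fold (−2.08 ± 0.0434, adjusted p = 1.09e-57). The effects differed by −2.07 ± 0.0595 (adjusted p = 7.72e-47).

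The ligands and the signalling chain of Pth1r were measured with it. Pthlh, the related peptide, had at most 10 scaled reads and Pth, the hormone, had 0 in all 8 libraries. Gnas, which encodes the G protein subunit that starts cyclic AMP synthesis, had 7637 and 7612 scaled reads in Virma cKO, against 8775 and 8851 in Virma WT (−0.21 ± 0.0215). Of 11 tested genes of 14 listed, 1 rose and 6 fell in Mettl3 cKO, with a median log2 fold change of −0.17. In Virma cKO 6 rose and 5 fell, with a median of 0.14. Pde4b, a phosphodiesterase that degrades cyclic AMP, rose in both (0.74 ± 0.280 and 1.28 ± 0.115). Pde4d, of the same family, fell in both (−0.64 ± 0.101 in Mettl3 cKO and −0.37 ± 0.0650 in Virma cKO), as did Adcy9, an adenylyl cyclase (−0.50 ± 0.201 and −0.69 ± 0.135).

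Stra6 encodes the cell surface receptor that takes up retinol from its carrier protein. It had 1172 and 1197 scaled reads in Mettl3 cKO, against 1330 and 1297 in Mettl3 WT. The Virma cKO values were 1237 and 1224, against 1305 and 1219 in Virma WT, and these groups overlap. The log2 fold change was −0.15 ± 0.0602 in Mettl3 cKO (adjusted p = 0.0285). This call was lost without any 1 of 3 of the 4 Mettl3 libraries, Mettl3 WT replicate 1 (adjusted p = 0.18), Mettl3 WT replicate 2 (0.067) and Mettl3 cKO replicate 1 (0.0971). It was also lost without the filter (adjusted p = 0.0606), with scaling by totals (0.104) and with Virma WT as control (0.0571). In Virma cKO the log2 fold change was −0.04 ± 0.0403 (adjusted p = 0.421). Scaling by totals turned it to 0.11 with adjusted p = 0.0104, and that scaling moved the median of all tested genes in the Virma comparison to 0.131, against −0.014. The difference of the effects was 0.11 ± 0.0724 and did not pass (adjusted p = 0.185). It passed with length and GC trends removed (0.29, adjusted p = 0.000398) and with scaling by totals (0.22, adjusted p = 0.00679).

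Of 17 listed genes of retinol and retinoic acid handling 15 were tested. In Mettl3 cKO 7 rose and 4 fell, and in Virma cKO 6 rose and 4 fell. Cyp26a1, an enzyme that clears retinoic acid, fell in both. It had 3050 and 3031 scaled reads in Mettl3 cKO, against 4991 and 5058 in Mettl3 WT, and 545 and 547 in Virma cKO, against 1709 and 1723 in Virma WT. Cyp26b1, of the same family, fell in Mettl3 cKO (−0.65 ± 0.126) and rose in Virma cKO (0.69 ± 0.0943). Crabp1, a carrier of retinoic acid in the cytoplasm, rose in both (0.59 ± 0.107 and 0.94 ± 0.0545). Lrat, which stores retinol as esters, had at most 3 scaled reads and was at 0 in 3 libraries.

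Snai1 encodes the transcription factor Snail, a repressor of the epithelial cadherin gene Cdh1. It had 338 and 333 scaled reads in Mettl3 cKO, against 500 and 447 in Mettl3 WT. In Virma cKO it had 174 and 129, against 303 and 305 in Virma WT. It fell 1.41-fold in Mettl3 cKO (log2 fold change −0.49 ± 0.104, adjusted p = 3.74e-05) and 2-fold in Virma cKO (−1.0 ± 0.0937, adjusted p = 3.5e-16). The effects differed by −0.51 ± 0.140 (adjusted p = 0.00152). That difference did not pass without Virma cKO replicate 2 (−0.30, adjusted p = 0.0889), without the filter (adjusted p = 0.0649) or with length and GC taken out as a trend (−0.13, adjusted p = 0.448).

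All 15 other listed genes of the epithelial-mesenchymal transition were tested. The list mixes epithelial genes, such as Cdh1 and Epcam, with mesenchymal ones, such as Twist2. Its counts and medians therefore give no direction of the transition. In Mettl3 cKO 6 rose and 2 fell, and the median log2 fold change was 0.29. In Virma cKO 11 rose and 1 fell, and the median was 0.53. Twist2, a mesenchymal transcription factor, rose in both (1.51 ± 0.400 and 1.21 ± 0.149), and it had 3 and 22 scaled reads in Mettl3 WT. Epcam, an epithelial adhesion molecule, fell in both (−0.39 ± 0.0432 and −0.21 ± 0.0295). Cdh1 had 12353 and 12309 scaled reads in Virma cKO, against 8769 and 8917 in Virma WT (0.48 ± 0.0200). In Mettl3 cKO, where Snai1 also fell, Cdh1 did not pass (0.05 ± 0.0274, adjusted p = 0.0821). Fibroblast markers moved upwards beside these genes and beside Thbd. The 12 of them summed to 6219 and 6214 in Mettl3 cKO, against 3369 and 3615 in Mettl3 WT, and to 18289 and 18082 in Virma cKO, against 8038 and 8068 in Virma WT. In Mettl3 cKO 9 of 12 rose and none fell, and in Virma cKO 12 of 12 rose. Their part in the rise of Thbd or the fall of Snai1 was not tested.

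Fst encodes follistatin, a secreted protein that binds and blocks activin. It had 77 and 70 scaled reads in Mettl3 cKO, against 87 and 141 in Mettl3 WT, the WT values resting on about 34 and 51 reads. The Virma cKO values were 193 and 202, against 227 and 249 in Virma WT. The groups did not overlap, but the gap between 77 and 87 in the Mettl3 set is within the counting error, with 95% Poisson intervals of 60.9 to 95.3 and 60 to 121. The log2 fold change was −0.56 ± 0.210 in Mettl3 cKO (adjusted p = 0.0189) and −0.26 ± 0.0886 in Virma cKO (adjusted p = 0.00587). In Mettl3 cKO the call was lost without Mettl3 WT replicate 2 (−0.23, adjusted p = 0.501), without Mettl3 cKO replicate 2 (−0.50, adjusted p = 0.0698) and without the filter (adjusted p = 0.095). In Virma cKO it was lost without Virma WT replicate 2 (−0.20, adjusted p = 0.0854), without Virma cKO replicate 1 (−0.23, adjusted p = 0.0592), with scaling by totals (−0.12, adjusted p = 0.216) and without the weights for depth (adjusted p = 0.157).

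Of 16 listed genes of activin and Nodal signalling 15 were tested. In Mettl3 cKO 7 rose and 4 fell, and in Virma cKO 9 rose and 3 fell. Inhba, the activin A subunit that follistatin binds, had 462 and 480 scaled reads in Virma cKO, against 174 and 185 in Virma WT (1.38 ± 0.0797), and it also rose in Mettl3 cKO (0.70 ± 0.299, adjusted p = 0.0396). Bmp7 rose in both (0.77 ± 0.164 in Mettl3 cKO and 0.92 ± 0.0854 in Virma cKO). Fstl3, a relative of follistatin, fell in Mettl3 cKO (−0.53 ± 0.233) and did not pass in Virma cKO (−0.16 ± 0.147, adjusted p = 0.322). Lefty1, an inhibitor of Nodal, rose in Mettl3 cKO (0.15 ± 0.0495) and fell in Virma cKO (−1.13 ± 0.0306).

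**Figure D3:**
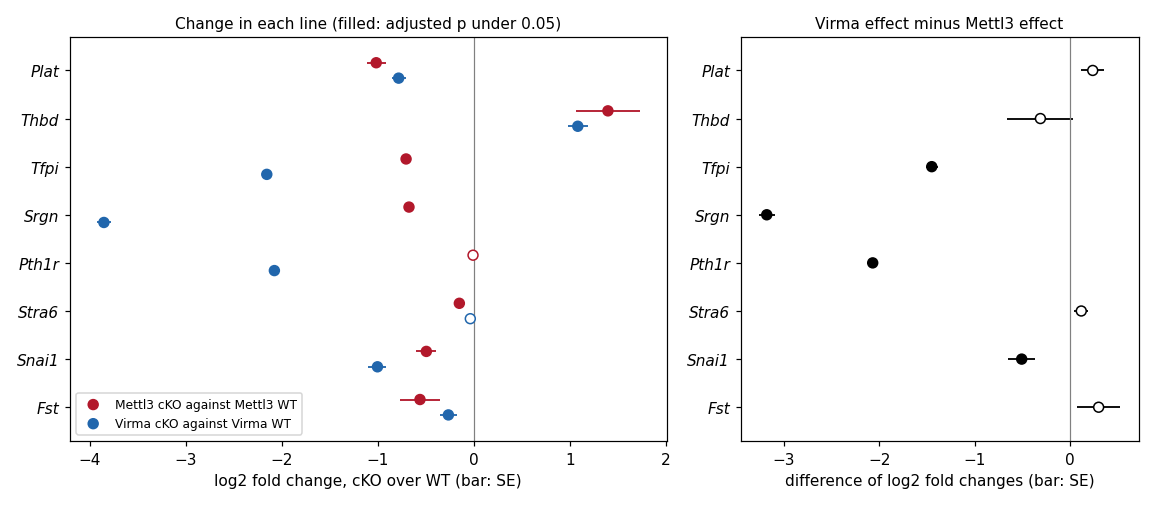
Left, log2 fold change of cKO over WT for each of the 8 genes in the Mettl3 and Virma sets; right, the Virma effect minus the Mettl3 effect; bars are SE and filled points have adjusted p under 0.05. Pth1r, Tfpi, Srgn and Snai1 lie below 0 on the right, from −3.18 to −0.51.

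The 2 effects were compared directly by their difference, with all 4 groups in 1 fit. It passed for 4 of the 8 genes, Pth1r, Tfpi, Srgn and Snai1, all with the lower value in Virma cKO. Of all tested genes 51.7% passed this test, 28.1% lower and 23.7% higher. For Plat, Thbd, Stra6 and Fst the difference did not pass, which does not show that the effects are alike. For Thbd it was −0.31 ± 0.346 and for Fst 0.30 ± 0.228, and both rest on the Mettl3 WT libraries. Without Mettl3 WT replicate 1 both passed, Thbd at −1.02 (adjusted p = 0.0425) and Fst at 0.65 (adjusted p = 0.0318), which makes 6 of the 8 genes. Without Mettl3 WT replicate 2 they were 0.35 for Thbd (adjusted p = 0.442) and −0.03 for Fst (adjusted p = 0.945).

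The WT groups themselves differed in 7 of the 8 genes. Thbd was higher in Virma WT than in Mettl3 WT by 2.02 ± 0.314 on the log2 scale and Fst by 1.09 ± 0.177. Plat (−0.38 ± 0.0867), Pth1r (−0.26 ± 0.0398), Snai1 (−0.64 ± 0.100), Tfpi (−0.51 ± 0.0406) and Srgn (−0.33 ± 0.0401) were lower. Stra6 did not pass (−0.06 ± 0.0573). Of all tested genes 49.0% passed, 22.7% lower and 26.4% higher. Plat lost this call without Mettl3 WT replicate 1 (−0.26, adjusted p = 0.0789). The 2 sets also differ in depth, and depth and set cannot be told apart. Of the 12 listed fibroblast genes 11 were higher and 1 was lower in Virma WT than in Mettl3 WT, with a median log2 fold change of 1.5. Their part in the WT differences of the 8 genes was not tested. For Thbd the 2.02 between the WT groups stands beside effects of 1.40 and 1.08 within the sets, and the 70 scaled reads of Mettl3 cKO lie below the 101 and 119 of Virma WT.

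Against Virma WT in place of their own controls, the Mettl3 cKO libraries showed Thbd lower (−0.62 ± 0.159, adjusted p = 0.000362) and Pth1r higher (0.25 ± 0.0317, adjusted p = 4.29e-11). Snai1 was then 0.14 ± 0.0823 and did not pass (adjusted p = 0.117). Stra6 was −0.09 ± 0.0440 and did not pass either (adjusted p = 0.0571). Plat, Fst, Tfpi and Srgn were lower with either control. In this comparison 71.2% of all tested genes passed, 36.8% lower and 34.4% higher.

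Per kilobase of the longest annotated transcript, the order of the 8 genes differed between the Virma groups. In Virma cKO Stra6 led with 400 scaled reads per kilobase, before Pth1r with 273, Tfpi with 122, Srgn with 112 and Snai1 with 93.5. Fst (67.6), Thbd (63.4) and Plat (62.7) followed. The 2 libraries of Srgn and of Snai1 overlapped at 107, and the ranges of Thbd overlapped with those of Plat and of Fst. In Virma WT Srgn led with 1640, before Pth1r with 1160, Tfpi with 544, Stra6 with 410, Snai1 with 188, Plat with 108, Fst with 81.5 and Thbd with 29.5. In Mettl3 cKO Pth1r led with 1380, before Srgn with 1290, Tfpi with 474, Stra6 with 385, Snai1 with 207, Plat with 69.5, Fst with 25.2 and Thbd with 18.8. In Mettl3 WT Srgn, at 2050, stood before Pth1r, at 1380, and Thbd, at 7.39, was the least abundant.

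The summed values of the 8 genes were 9172 and 9271 in Mettl3 cKO, against 12406 and 12207 in Mettl3 WT, and 3369 and 3380 in Virma cKO, against 10078 and 9931 in Virma WT. Over the 8 libraries the log2 values of Tfpi and Srgn (Pearson r = 0.99), Pth1r and Srgn (0.98) and Pth1r and Tfpi (0.97) moved together. Thbd and Snai1 ran in opposite directions (r = −0.88). These libraries form 4 groups of 2 and differ in depth, so the coefficients describe the groups and carry no test.

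The genes with the most similar profiles were found by the Euclidean distance of centred log2 values over the 8 libraries. Tfpi lay closest to Lamb1, the laminin beta 1 chain (distance 0.086), and Col4a1, a type IV collagen chain (0.219). The 2 genes nearest to Pth1r were Sox17, a primitive endoderm transcription factor (0.30), and Nrg2 (0.39). Srgn had Npl (0.505) and Lama1 (0.678) nearest, both at a wider distance, and Snai1 had Sema4g (0.279) and Ube2l6 (0.294). Plat had Nr5a2 (0.27) and Eya1 (0.279), Stra6 had Prkar1a (0.067) and Cul1 (0.073), Thbd had Alcam (0.544) and Kif26b (0.567), and Fst had Egr3 (0.456) and Lgals3 (0.493). Lamb1 had 6771 and 6921 scaled reads in Virma cKO, against 30477 and 30733 in Virma WT, and 25805 and 25646 in Mettl3 cKO, against 41762 and 41450 in Mettl3 WT. Its log2 fold changes of −2.16 ± 0.0188 and −0.69 ± 0.0182 stand beside the −2.16 and −0.70 of Tfpi.

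A list of 16 other genes of parietal endoderm, mostly of the basement membrane and keratins, was counted beside the 8. In Mettl3 cKO 12 of 16 fell, none rose, and the median log2 fold change was −0.42. In Virma cKO 11 fell and 4 rose, with a median of −0.20. Lama1 fell furthest in both (−0.78 ± 0.0161 and −3.27 ± 0.0198), and Krt18, a keratin of simple epithelia, fell in Mettl3 cKO (−0.11 ± 0.0336) and rose in Virma cKO (0.52 ± 0.0239).

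Primitive endoderm genes fell beside them. In Mettl3 cKO 8 of 9 fell, with a median of −0.55, and in Virma cKO 9 of 9 fell, with a median of −3.07. Gata6, a transcription factor that specifies primitive endoderm, had 1595 and 1496 scaled reads in Mettl3 cKO, against 2656 and 2456 in Mettl3 WT, and 204 and 221 in Virma cKO, against 1847 and 1791 in Virma WT. Sox17 did not pass in Mettl3 cKO (−0.05 ± 0.0800, adjusted p = 0.628) and fell in Virma cKO (−1.91 ± 0.0829). Pdgfra, a growth factor receptor of primitive endoderm, fell furthest in Mettl3 cKO (−0.83 ± 0.0418) and Cubn, an endocytic receptor, in Virma cKO (−3.93 ± 0.0311). Whether the 8 genes fell with the share of primitive endoderm cells was not tested.

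Of 13 visceral endoderm genes 8 passed the filter. In Mettl3 cKO 2 rose and 1 fell, and in Virma cKO none rose and 6 fell, Amn, a partner of Cubn, being lowest (−3.23 ± 0.127). Of 8 pluripotency genes 3 rose and 4 fell in Mettl3 cKO, and 1 rose and 7 fell in Virma cKO, with Dppa5a lowest in both (−0.61 ± 0.0291 and −1.94 ± 0.0274). Of 12 trophoblast genes 8 were tested, of which 2 rose and 4 fell in Mettl3 cKO and 2 rose and 3 fell in Virma cKO. The placental hormone gene Prl3b1 was at 0 in all 8 libraries.

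**Figure D4:**
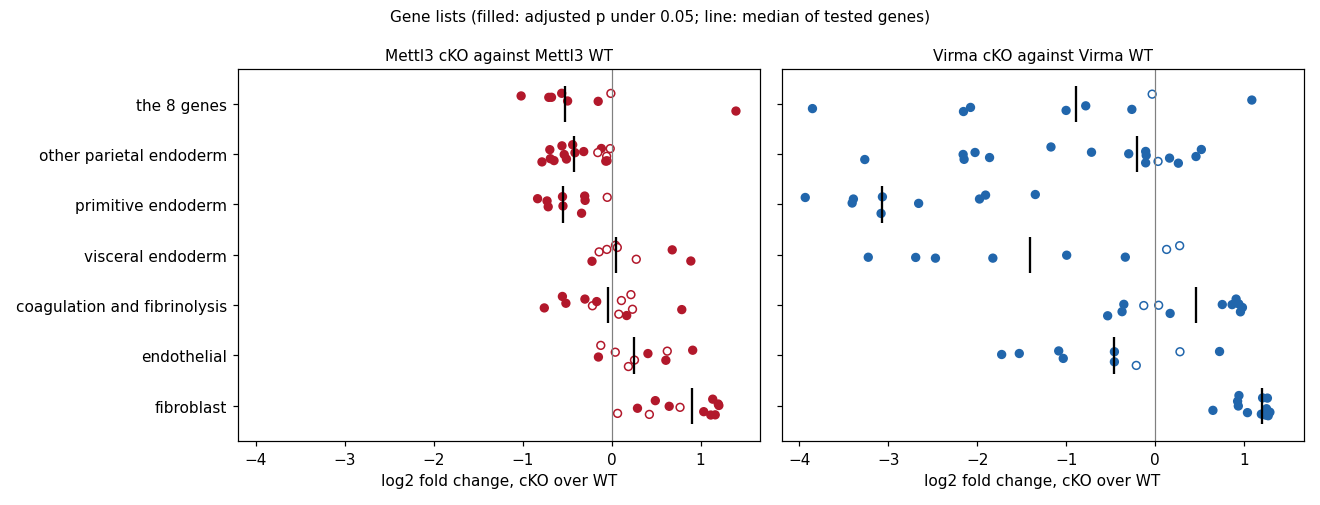
Log2 fold change of cKO over WT (x axis) of every tested gene of 7 lists, for the Mettl3 set on the left and the Virma set on the right; filled points have adjusted p under 0.05 and lines are list medians. The 8 genes spread from −3.85 to 1.08 in Virma cKO, with primitive endoderm genes all below 0 and fibroblast genes all above 0.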

How the data were processed

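Total RNA of 8 mouse libraries was measured per gene, in 4 groups of 2 taken from the titles. The protocol in the labels names TRIzol extraction and 2 library kits, SMARTer stranded and VAHTS universal. It does not tie kits to libraries. The build was mm39, and STAR 2.7.11b, Subread, Trim Galore, DESeq2 and FastQC 0.12.1 are named, per the submitters' processing notes. Their roles and the strand setting are not given.

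The deposited values are a signal per gene, scaled and rounded before they were deposited, although the table is named as raw counts. No label records that step, which was read from the values. In every library the upper quartile over 21812 symbols was 601.25 or 602, and low values fell on steps of 2.549 and 2.759 in Mettl3 WT and of 0.6759 to 1.039 in the others. At least 99.766% of values lay on these steps. Dividing by the step gave approximate reads, used for depth, for weights and for Poisson intervals only. A count model was not run, since rounding does not give the reads back exactly. Replicates differed by more than sampling noise in all 4 groups (chi-square per degree of freedom 1.07 to 1.9 in approximate reads), so each library entered on its own.

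The planned count-based test was therefore replaced by limma 3.58.1 in R 4.3.3, on log2(value + 3), with 4 group means, weights from the mean-variance trend of the approximate reads, robust moderation, Benjamini-Hochberg adjustment over 12854 genes and a threshold of 0.05. Fold changes are on that scale and understate changes of low genes. Genes needed a value of 27.6, worth 10 reads in the shallowest library, in 2 libraries. Each gene has 4 residual degrees of freedom, moderated by a prior of 75.5 in the median, so most of the spread behind a p is shared over all tested genes. The level of a gene enters through the weights only. An unweighted fit was run first and its results were seen. The weights were adopted afterwards, because on simulated counts the unweighted fit gave too many false calls in the Mettl3 comparison. The weighted fit still gave more there than the threshold allows, so calls near the threshold in that comparison are less certain.

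The 8 genes, the other lists and the tests were chosen with earlier results of these data known. The plan was to name the 8 genes, Mettl3 and Virma, the largest called rise and fall of each list per cKO comparison, and list genes at 0. The 2 nearest profiles were also named, by Euclidean distance of centred log2 values, divided by the same factor in every library. This plan was not followed in full. The largest called rises or falls Spink1, Loxl1, Dcn, Gcm1, Cdx2, Ascl2, Pou5f1 and Esrrb were left out of the results. So were some list genes at 0, among them Apoa4, which was at 0 in both Mettl3 WT libraries. In the trophoblast list 3 genes were at 0 in Mettl3 WT replicate 1, of which only Prl3b1 was named. Other genes were added after their values were seen: Gata6, Sox17, Lama1 in WT, Afp, Ttr, Ptprc, Pthlh, Gnas, Cdh1, Cdh5, Tie1, Kdr, Amn, Trf, Inhba and Cyp26b1 as defining or partner genes. Of these, Cdh5, Tie1, Kdr, Amn and Inhba are also largest called rises or falls of their lists in a cKO comparison. Gene lengths and GC content came from GENCODE M21 on GRCm38 and matched 21144 symbols directly and 434 through another name. Same-numbered libraries did not deviate together (correlations −0.025 to 0.0595), so the numbers were not used as pairs.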

Additional observations from a re-analysis of the deposited data

Results flagged for a closer look

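The effect of the Virma label differed from that of the Mettl3 label, by the test of the difference itself in limma, for Srgn (−3.18), Pth1r (−2.07), Tfpi (−1.45) and Snai1 (−0.51), in log2 units. In all 4 the value was lower in Virma cKO, and 51.7% of all tested genes passed the same test.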

How the results depend on the processing

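Requiring a 2-fold change left 2, 5, 3 and 2 of the 8 genes in the Mettl3, Virma, difference and WT comparisons, and 599, 1083, 662 and 600 of all genes. Leaving out 1 library gave 4 to 7 of the 8 genes in Mettl3 cKO, 6 to 7 in Virma cKO, 3 to 6 for the difference and 6 to 7 between WT groups. Over all genes it gave 5780 to 7268, 8720 to 9598, 5563 to 6514 and 4810 to 6370. The lowest count for Mettl3 cKO came without Mettl3 WT replicate 2. Directions turned for Pth1r in Mettl3 cKO with scaling by totals (0.03) and with Virma WT as control (0.25), and ran from −0.04 to 0.03 without 1 library. With that control Thbd was −0.62 and Snai1 0.14. Stra6 in Virma cKO was 0.11 with scaling by totals and ran from −0.08 to 0.01 without 1 library. The difference of effects ran from −1.02 to 0.35 for Thbd and from −0.03 to 0.65 for Fst. The causes were not tested. With the replicate block 7, 7, 4 and 7 of the 8 genes passed, and 7525, 9576, 6965 and 6601 of all genes, and no call on the 8 genes changed. Other alternatives were no weights (8034, 8573, 6696 and 7035 of all genes), pseudocounts of 1 and 10, the Virma cKO pair as 1 sample (all 4 chosen after seeing the data), another scaling, filter and threshold, each set alone, and length and GC removed. Of 664 values per gene and setting 615 kept direction and call, and 9 turned direction, some of them with a changed call. Among those that kept direction, 33 lost and 7 gained a call. Alternatives that need counts were not run. Depth limits Thbd and Fst in Mettl3 WT, at 5 to 51 reads.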
